A study of Mus musculus with 18 samples.

Results

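The IFIT family comprised 5 genes of the mouse genome, Ifit1, Ifit1bl1, Ifit2, Ifit3 and Ifit3b, chosen by name from a table of 16248 genes and described across all 18 libraries of the series. The libraries were bulk RNA sequencing (RNA-seq) of ECs, or endothelial cells, which form the inner lining of blood vessels. They were sorted as live CD45-, CD31+ cells from FVB female mice, 3 libraries for each of 6 groups, and the study describes 3 mice a group from independent experiments. The tissues compared were the normal fat pad, the spontaneous tumour and the implanted tumour, each taken 3 hours after an injection of either phosphate-buffered saline (PBS) or cGAMP.

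For normal ECs, the source was mammary fat pad of FVB mice, wild type in genotype, whose age the labels do not give. MMTV-PyMT ECs came from breast tumours of FVB mice of the genotype MMTV-PyMT, treated from 9 weeks of age, in which a viral oncogene (PyMT) is driven by the MMTV promoter in the mammary epithelium, not in ECs. Implanted ECs came from breast tumours in wild type FVB hosts, made by placing cultured MMTV-PyMT tumour cells with Matrigel in the fat pad of hosts 8 to 9 weeks old. In an implanted tumour the vessels of the host are wild type, whereas in a spontaneous tumour the vessels carry the transgene. Every group was injected, so the PBS groups share the injection itself. cGAMP is a cyclic dinucleotide that activates STING, a membrane protein of the cytosolic DNA-sensing pathway that turns on type I interferon. Which library belongs to which mouse or experiment was not stated, and the 6 normal libraries were recognised in the table by column names that give a treatment and no tumour.

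IFIT proteins (interferon-induced proteins with tetratricopeptide repeats) are among the most strongly induced products of type I interferon signalling and bind foreign RNA in the cytosol. IFIT1 binds RNA whose cap lacks the ribose methylation of host transcripts and blocks its translation, IFIT2 binds RNA and limits virus spread in the mouse, and IFIT3 works together with other IFIT proteins. Their genes are switched on by ISGF3, the transcription factor complex of type I interferon signalling that binds the interferon-stimulated response element, and by IRF3 and other interferon regulatory factors.

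The 5 genes lie in 1 cluster on chromosome 19 (GENCODE M21, GRCm38/mm10). In order along the chromosome they are Ifit2 (ENSMUSG00000045932.12, 34550694 to 34576419, plus strand), Ifit3 (ENSMUSG00000074896.3, 34583531 to 34588731, plus strand), Ifit1bl1 (ENSMUSG00000079339.7, 34592891 to 34601956, minus strand), Ifit3b (ENSMUSG00000062488.9, 34607970 to 34613401, plus strand) and Ifit1 (ENSMUSG00000034459.8, 34640871 to 34650009, plus strand). All are protein-coding, and 0 annotated genes overlap any of them. Their relative Ifit1bl2 (34617049 to 34640743, minus strand) sits head to head with Ifit1, and it is no member of the set. Summed exon lengths were 3927 bases for Ifit2, 1745 for Ifit3, 2260 for Ifit1bl1, 2000 for Ifit3b and 2656 for Ifit1.

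Upstream sequences are shown because the 5 genes moved together after cGAMP and because Ifit3 and Ifit3b share theirs. The windows are the 200 bases before the RefSeq start of each gene (GRCm38.p6), 5′ to 3′ on the strand of the gene, and capitals mark the core of the interferon-stimulated response element, searched as GAAANNGAA on both strands. They are Ifit1 at chr19:34640689-34640888 (plus), Ifit3 at chr19:34583329-34583528 (plus), Ifit3b at chr19:34607757-34607956 (plus) and Ifit1bl1 at chr19:34601969-34602168 (minus).
Ifit1: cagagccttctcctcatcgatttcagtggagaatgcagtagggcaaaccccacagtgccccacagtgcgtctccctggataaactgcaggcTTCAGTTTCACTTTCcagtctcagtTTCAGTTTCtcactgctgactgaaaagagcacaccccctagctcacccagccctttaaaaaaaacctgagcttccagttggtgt
Ifit3: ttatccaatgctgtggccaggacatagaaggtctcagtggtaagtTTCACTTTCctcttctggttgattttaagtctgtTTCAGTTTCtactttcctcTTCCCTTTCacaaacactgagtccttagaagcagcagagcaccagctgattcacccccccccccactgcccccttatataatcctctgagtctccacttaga
Ifit3b: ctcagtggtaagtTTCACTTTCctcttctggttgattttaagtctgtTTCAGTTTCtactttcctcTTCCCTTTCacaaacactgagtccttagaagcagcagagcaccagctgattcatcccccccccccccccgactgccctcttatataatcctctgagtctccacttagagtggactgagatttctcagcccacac
Ifit1bl1: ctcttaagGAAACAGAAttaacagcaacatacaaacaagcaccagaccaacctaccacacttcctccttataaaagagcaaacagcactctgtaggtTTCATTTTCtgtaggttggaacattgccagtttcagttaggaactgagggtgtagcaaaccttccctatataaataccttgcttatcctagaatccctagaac
All 5 genes had an entry in RefSeq, and the search covered 250 bases before each start. Ifit1 held 3 matches, of which the first 2 overlap, Ifit3 held 3, Ifit3b held 3 and Ifit1bl1 held 2. Ifit2 held 0 in either of its 2 listed windows, which says only that these letters are not there. Of 32851 such windows of all genes, 7.13% held a match and 0.469% held 2 or more. Ifit1bl2 also held 3, in a window that overlaps that of Ifit1 on the other strand. The gamma-activated site (TTCNNNGAA) matched 1 time in Ifit2 and 0 times in the nearest windows of the other members (7.02% of all windows). TATAAA matched 2 times in Ifit1bl1, where 12.4% of all windows held a match and 2.1% held 2 or more.

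**Figure D1:**
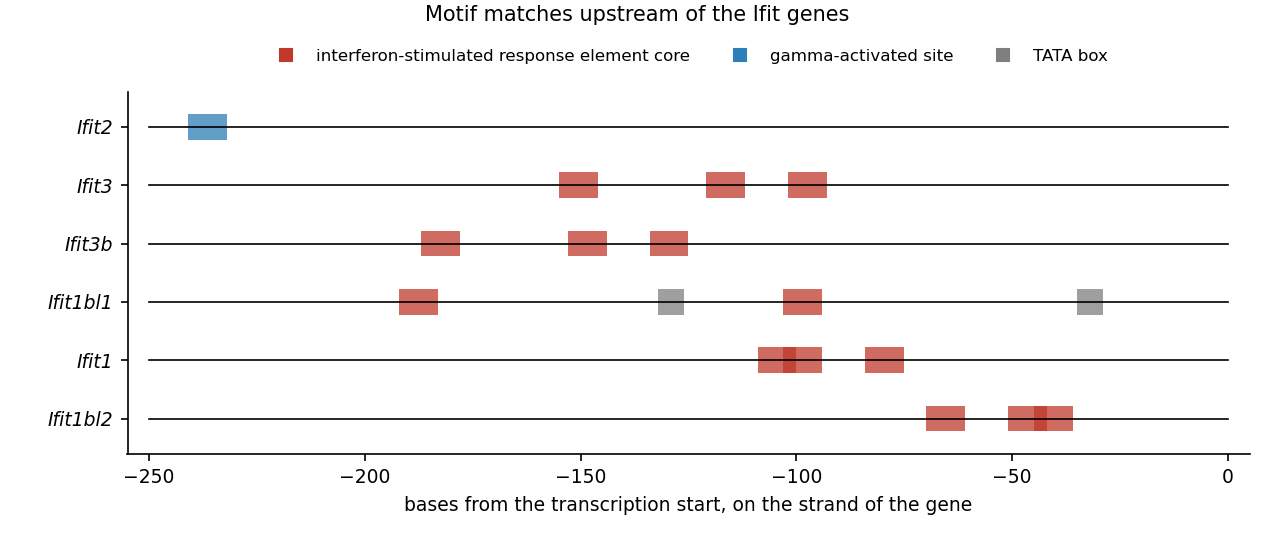
Matches of 3 motifs in the 250 bases upstream of the 5 Ifit genes and of Ifit1bl2, by distance from the transcription start in bases (start at 0), on the strand of each gene. Ifit3 and Ifit3b hold their 3 response element cores with the same spacing, shifted by the position of the start, and Ifit2 holds none.

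Ifit3 and Ifit3b are near copies of each other. Where their 250 upstream bases align, 216 of 218 bases (99.1%) were identical, and the 3 matches keep their spacing. Their transcripts were identical at 1663 of 1697 aligned bases (98%). Because near copies can share reads, every stretch of 75 bases of each gene's longest transcript was looked up in the transcripts of all other genes. Of the stretches of Ifit3, 58.9% occurred in no other gene, and of those of Ifit3b 64.3%, the rest being shared between the pair. For Ifit1 the share was 94.8%, for Ifit1bl1 98% and for Ifit2 100%, and what Ifit1 and Ifit1bl1 shared was shared with Ifit1bl2 alone. The levels of Ifit3 and Ifit3b are therefore uncertain as separate values, since counting can drop reads that fit both.

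Between 9015157 and 11969514 whole reads per library were recovered from the deposited FPKM values (fragment counts scaled by gene length and library size), which set the counting error. The sort was for CD31+ cells, and all 8 endothelial markers were present in every group, led by Cdh5. Markers of other cells were present too. The summed level of 6 epithelial markers was 313 to 419 FPKM in normal ECs, 581 to 905 in MMTV-PyMT ECs and 245 to 533 in implanted ECs. That of 7 leukocyte markers was 17.4 to 66.3 FPKM in 17 libraries and 222 FPKM in implanted cGAMP replicate 2, where Lyz2 and Ptprc were highest in that group. That of 7 fibroblast and mural markers was 449 to 635 FPKM in normal ECs, 274 to 391 in MMTV-PyMT ECs and 316 to 719 in implanted ECs, and of 4 adipocyte markers only Fabp4 was listed. The part of these cells in the Ifit levels was not tested, and fewer cells of a type cannot be told apart from less RNA per cell in bulk samples. The 5 Ifit calls in the cGAMP comparison of implanted ECs stayed 5 of 5 without implanted cGAMP replicate 2.

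cGAMP raised all 5 Ifit genes in ECs of all 3 tissues, by 29.4-fold to 190.1-fold in group means. The question was how far the family responds to a STING agonist in each tissue. A gene is called here when its adjusted p-value in limma is under 0.05 and its log2 change of FPKM + 1 is at least 1, that is 2-fold. In normal ECs 5 of 5 members were called higher, against 3.02% of the 13983 tested genes. The count was 5 of 5 in MMTV-PyMT ECs, against 2.49%, and 5 of 5 in implanted ECs, against 6.13%. In all 15 of these comparisons the lowest cGAMP library lay above the highest PBS library.

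Ifit1, the RNA cap sensor, stood at 6.44, 8.98 and 5.52 FPKM in normal PBS replicates 1 to 3 and at 833, 801 and 635 FPKM in the cGAMP replicates. In MMTV-PyMT ECs it stood at 2.61, 8.62 and 4.12 FPKM under PBS and at 945, 679 and 809 FPKM under cGAMP. In implanted ECs it stood at 21.2, 14.2 and 15.3 FPKM under PBS and at 709, 732 and 667 FPKM under cGAMP. The 3 cGAMP groups overlapped with one another, whereas implanted PBS lay above both other PBS groups. The ratio of group means was 108-fold in normal ECs, 159-fold in MMTV-PyMT ECs and 41.6-fold in implanted ECs. On the log2 scale of FPKM + 1 the changes were 6.58 ± 0.27 (SE, adjusted p = 6.94e-11), 7.16 ± 0.27 (adjusted p = 1.41e-11) and 5.32 ± 0.27 (adjusted p = 3.91e-10).

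Ifit2, an RNA-binding member, stood at 5.80, 7.97 and 6.23 FPKM in normal PBS and at 568, 782 and 477 FPKM in normal cGAMP. In MMTV-PyMT ECs its levels were 2.72, 5.08 and 2.77 FPKM under PBS and 534, 594 and 505 FPKM under cGAMP. In implanted ECs they were 24.2, 17.2 and 12.6 FPKM under PBS and 1680, 1358 and 1381 FPKM under cGAMP. All 3 implanted cGAMP libraries lay above every other library, while normal and MMTV-PyMT ECs overlapped under cGAMP. Group means rose 91.4-fold, 155-fold and 81.8-fold in the 3 tissues (normal, MMTV-PyMT, implanted). The log2 changes were 6.30 ± 0.23, 6.95 ± 0.23 and 6.32 ± 0.23 (SE), with adjusted p of 2.18e-11, 4.31e-12 and 1.45e-11. In implanted cGAMP libraries Ifit2 ranked 16 to 18 by FPKM among the 16248 listed genes, against 1535 to 3126 in implanted PBS.

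Ifit3, whose product partners other IFIT proteins, stood at 4.66, 8.17 and 4.28 FPKM in normal PBS and at 244, 235 and 187 FPKM in normal cGAMP. In MMTV-PyMT ECs its levels were 0.820, 2.06 and 1.98 FPKM under PBS and 278, 259 and 260 FPKM under cGAMP. In implanted ECs they were 19.5, 10.5 and 11.8 FPKM under PBS and 787, 791 and 765 FPKM under cGAMP. None of the 6 groups overlapped its neighbour in the order of means, which ran from implanted cGAMP through MMTV-PyMT cGAMP, normal cGAMP, implanted PBS and normal PBS to MMTV-PyMT PBS. Group means rose 39.0-fold, 164-fold and 56.0-fold in the 3 tissues (normal, MMTV-PyMT, implanted). The log2 changes were 5.09 ± 0.23, 6.71 ± 0.23 and 5.76 ± 0.23 (SE), with adjusted p of 3.06e-10, 5.48e-12 and 3.56e-11.

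Ifit3b, the near copy of Ifit3, stood at 3.39, 4.17 and 2.91 FPKM in normal PBS and at 114, 108 and 85.2 FPKM in normal cGAMP. In MMTV-PyMT ECs its levels were 0.377, 2.91 and 0.866 FPKM under PBS and 164, 137 and 147 FPKM under cGAMP. In implanted ECs they were 13.5, 6.38 and 9.56 FPKM under PBS and 434, 436 and 454 FPKM under cGAMP. The MMTV-PyMT PBS levels rest on 10, 63 and 22 reads, and those of Ifit3 on 19, 39 and 44. Its groups stood in the same order as those of Ifit3, and the highest MMTV-PyMT PBS library lay only just under the lowest normal PBS library (0.9999 times its level). Group means rose 29.4-fold, 108-fold and 44.9-fold. The log2 changes were 4.53 ± 0.29, 6.12 ± 0.29 and 5.41 ± 0.29 (SE), with adjusted p of 1.71e-08, 2.59e-10 and 7.5e-10.

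Ifit1bl1, a relative of Ifit1 on the opposite strand of the cluster, was the lowest member in every library. Under PBS it stood at 0.112, 0.187 and 0.408 FPKM in normal ECs, at 0.267, 0.163 and 0.104 FPKM in MMTV-PyMT ECs and at 0.426, 1.10 and 0.358 FPKM in implanted ECs. These levels rest on 3 to 22 reads per library. Under cGAMP it stood at 15.7, 10.7 and 9.53 FPKM in normal ECs, at 8.08, 16.9 and 12.1 FPKM in MMTV-PyMT ECs and at 135, 98.8 and 124 FPKM in implanted ECs. Normal and MMTV-PyMT ECs overlapped under cGAMP, and every implanted cGAMP library was at least 5.86 times above every library of those groups. The group means rose 50.8-fold, 69.3-fold and 190.1-fold in the 3 tissues (normal, MMTV-PyMT, implanted), and single cGAMP libraries stood 23.3 to 140 times, 30.3 to 161 times and 89.9 to 377 times above single PBS libraries. On the scale of FPKM + 1, which understates changes from so low a level, the log2 changes were 3.37 ± 0.23, 3.45 ± 0.23 and 6.22 ± 0.23 (SE), with adjusted p of 3.5e-08, 1.72e-08 and 1.56e-11. Ifit1bl2, the other relative of Ifit1, stood at 0.0234 to 0.445 FPKM under PBS and at 4.89 to 9.07 FPKM under cGAMP over all tissues.

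**Figure D2:**
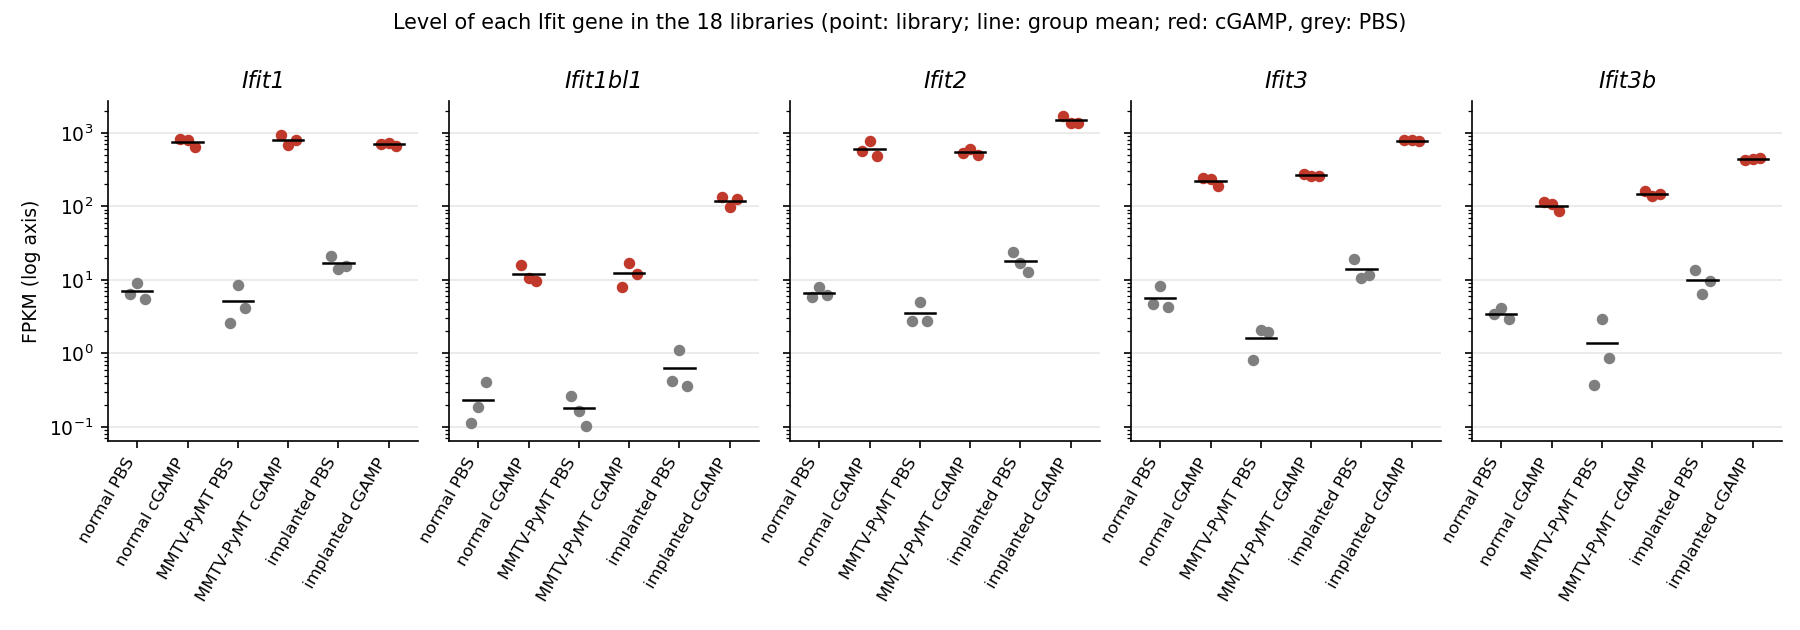
FPKM (log axis) of the 5 Ifit genes in each of the 18 libraries, by group, with 3 libraries and the group mean in each column. Red cGAMP points lie above grey PBS points in every gene and tissue, the Ifit1 libraries of all 3 tissues overlap under cGAMP, and Ifit1bl1 reaches 98.8 to 135 FPKM in implanted cGAMP but 8.08 to 16.9 FPKM in the other 2 cGAMP groups.

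**Figure D3:**
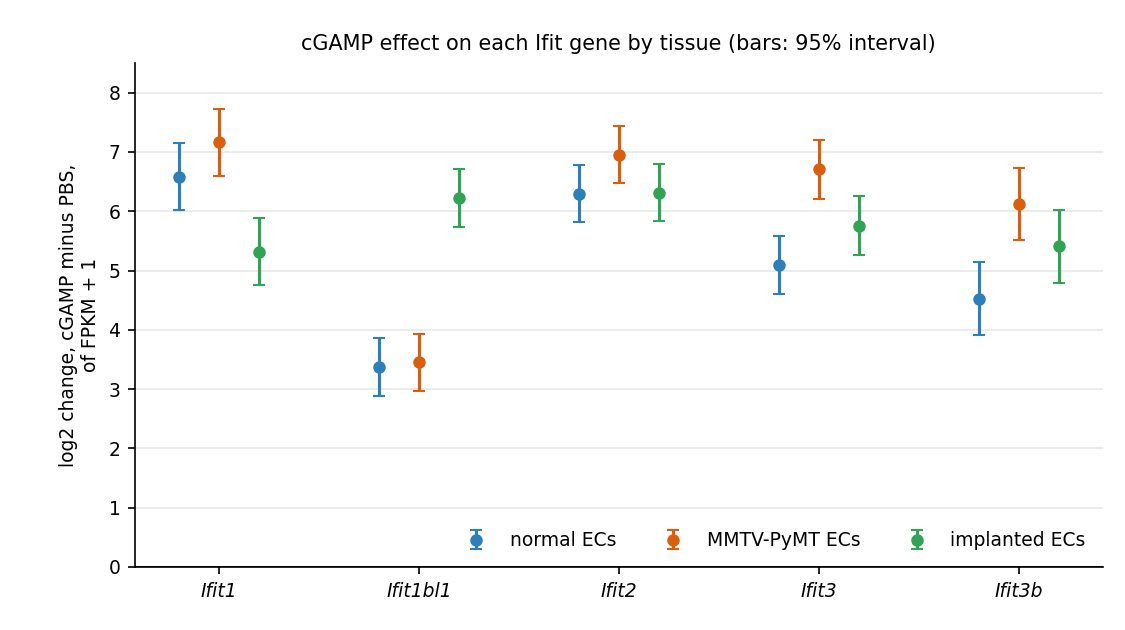
The log2 change of FPKM + 1, cGAMP minus PBS, for each Ifit gene in normal, MMTV-PyMT and implanted ECs (limma estimate, bars 95% interval, 3 libraries a group). Changes run from 3.37 (Ifit1bl1, normal) to 7.16 (Ifit1, MMTV-PyMT), and Ifit1bl1 alone has its largest change in implanted ECs.

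Without agonist, 4 of the 5 genes stood higher in implanted ECs than in both other tissues. This comparison asks what level the tissues start from. Against normal PBS, implanted PBS was higher for 4 of 5 members (5.74% of all tested genes were called higher), with log2 differences of 1.17 ± 0.27 for Ifit1, 1.28 ± 0.23 for Ifit2, 1.15 ± 0.23 for Ifit3 and 1.23 ± 0.29 for Ifit3b (SE, adjusted p = 0.00174, 0.000221, 0.000664 and 0.0022). The means were 2.42 to 2.82 times those of normal ECs. Against MMTV-PyMT PBS the same 4 members were higher (4.28% of all tested genes), by 1.65 ± 0.27, 2.07 ± 0.23, 2.50 ± 0.23 and 2.27 ± 0.29 on the log2 scale, with adjusted p from 8.96e-07 (Ifit3) to 0.000136 (Ifit1). Ifit1bl1 was not called in either, at 0.38 (95% interval -0.11 to 0.86) against normal and 0.44 (-0.04 to 0.92) against MMTV-PyMT ECs. The ratios of its means were 2.66 and 3.52, and its libraries were apart from those of MMTV-PyMT ECs but not from those of normal ECs. With a pseudocount of 0.1 FPKM it was called in both, at 1.07 (adjusted p = 0.0283 in limma) and 1.29 (adjusted p = 0.0117), and by voom in neither, at 1.35 (adjusted p = 0.234) and 1.62 (adjusted p = 0.163). Against MMTV-PyMT PBS, 4 of 6 epithelial markers were called lower in implanted PBS (median -1.04). Of the 13983 tested genes, 1025 were called either way there. At an adjusted p under 0.05 in limma with no fold limit, 5 of 8 endothelial markers were higher and 1 was lower (median 0.62). That limit was passed by 6361 of the 13983 tested genes, either way. The part of these markers was not tested.

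In MMTV-PyMT PBS, 2 of 5 members were called lower than in normal PBS, against 7.67% of all tested genes called lower. They were Ifit3, at -1.35 ± 0.23 (SE, adjusted p = 0.000145), and Ifit3b, at -1.05 ± 0.29 (adjusted p = 0.00551). Ifit2 had a log2 difference of -0.79 ± 0.23 (adjusted p = 0.00726), which missed the fold limit, and its groups did not overlap. Epithelial markers moved the other way, with 4 of 6 called higher in MMTV-PyMT PBS, and their part was not tested. Of the 13983 tested genes, 1945 were called either way in this comparison. Ifit1 stood at -0.48 (95% interval -1.05 to 0.08), with overlapping libraries. The call of Ifit3b was lost, through the fold limit, when normal PBS replicate 2, MMTV-PyMT PBS replicate 1 or MMTV-PyMT PBS replicate 3 was left out, at -0.94, -0.72 and -0.94. Likewise, in implanted against normal PBS, Ifit3 (0.90) and Ifit3b (0.99) fell below the fold limit without implanted PBS replicate 1. Scaled to total recovered reads, 3 of 5 members were called in that comparison. Ifit3 then stood at 0.9936, below the fold limit, and Ifit1 at 1.0012, just above it.

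After cGAMP the order of tissues depended on the gene. Against normal cGAMP, implanted cGAMP was higher for 4 of 5 members, against 9.03% of all tested genes, and against MMTV-PyMT cGAMP for the same 4, against 7.02%. Ifit1bl1 differed most, by 3.23 ± 0.23 (SE, adjusted p = 1.09e-08) from normal and 3.21 ± 0.23 (adjusted p = 3.22e-08) from MMTV-PyMT ECs, with means 9.96 and 9.67 times as high. Ifit2 differed by 1.30 ± 0.23 (adjusted p = 0.000142) and 1.43 ± 0.23 (adjusted p = 8.37e-05). Ifit3 differed by 1.82 ± 0.23 (adjusted p = 6.29e-06) and 1.55 ± 0.23 (adjusted p = 5.04e-05), and Ifit3b by 2.10 ± 0.29 (adjusted p = 1.27e-05) and 1.56 ± 0.29 (adjusted p = 0.000327). For Ifit1 the difference was -0.10 (95% interval -0.66 to 0.47) from normal and -0.19 (-0.76 to 0.37) from MMTV-PyMT ECs, and the libraries overlapped. Leukocyte markers moved with this comparison, 3 of 7 being called higher in implanted than in normal cGAMP and 7 of 7 in implanted than in MMTV-PyMT cGAMP, and their part in it was not tested. Without implanted cGAMP replicate 2, the library with the most leukocyte marker signal, Ifit1bl1 differed by 3.36 and 3.34 and 4 of 5 members were called in both comparisons. The remaining implanted cGAMP libraries still held 46.07 and 53.79 FPKM of these markers. MMTV-PyMT cGAMP held 19.1 to 22.65 FPKM and normal cGAMP 19.45 to 59.05 FPKM. Leaving out that library therefore did not take away the leukocyte marker difference from MMTV-PyMT ECs.

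Scaling bears on these differences. How the deposited values were scaled was not stated. The library size by which reads were divided was 0.7493 to 0.8455 times the recovered reads in implanted cGAMP. It was 1.117 to 1.1742 times in normal cGAMP and 1.007 to 1.0401 times in MMTV-PyMT cGAMP. FPKM levels and family sums carry that difference. When the values were scaled to total recovered reads instead, the median of all genes moved from 0.04 to -0.33 between implanted and normal cGAMP. The difference of Ifit2 became 0.79, below the fold limit. Quantile normalisation put Ifit2 at 0.23 and Ifit1 at -1.14 in that comparison, where Ifit1 was then called lower (adjusted p = 0.00207 in limma). Between MMTV-PyMT and normal ECs under cGAMP, 0 of 5 members were called in limma, against 10.4% of all tested genes called either way, with 0 at an unadjusted p under 0.05 and 0 called by voom. The widest of these differences was Ifit3b, at 0.54 (95% interval -0.07 to 1.15).

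**Figure D4:**
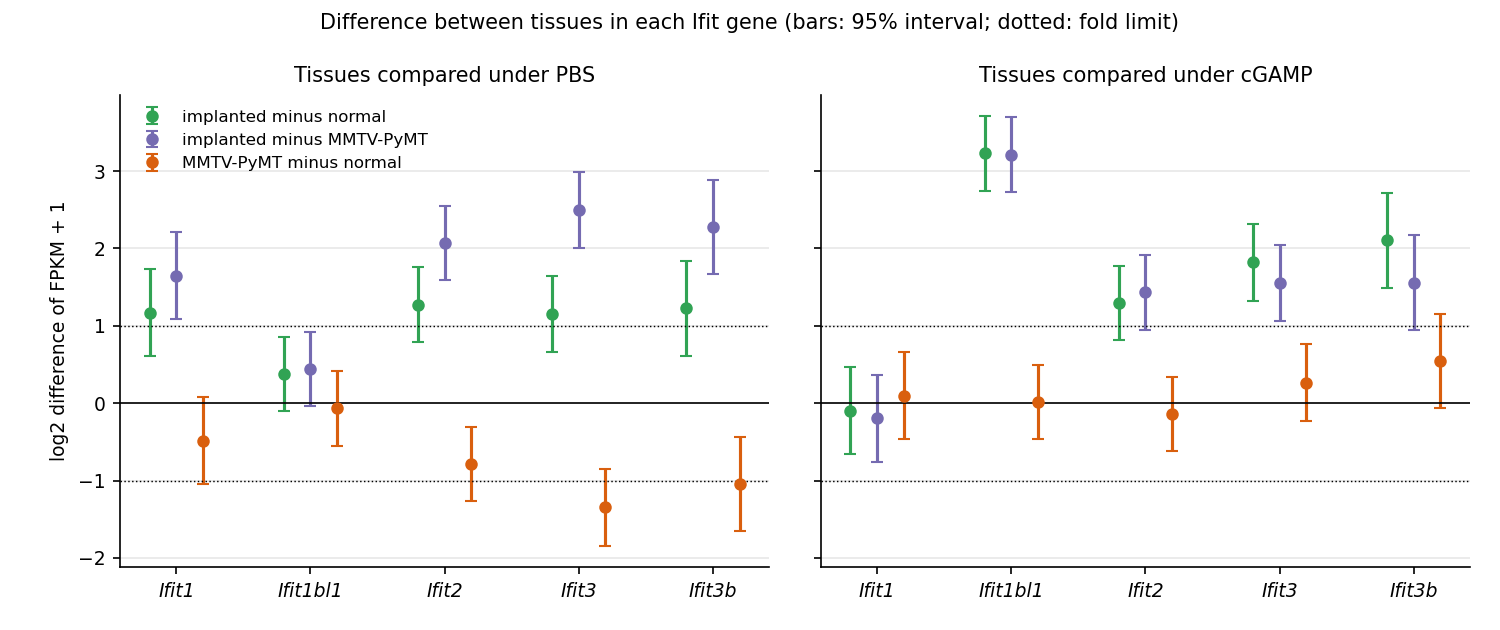
Differences between tissues in log2 of FPKM + 1 for each Ifit gene under PBS (left) and under cGAMP (right), as limma estimates with 95% intervals and 3 libraries a group. Implanted ECs are called higher than both other tissues in 4 genes in each panel, all but Ifit1bl1 under PBS and all but Ifit1 under cGAMP.

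The cGAMP effects themselves differed between tissues for 4 of the 5 genes. Between implanted and normal ECs, the effect on Ifit1bl1 was larger by 2.85 ± 0.32 (SE, adjusted p = 2.65e-05, 3.75% of all tested genes called higher), and that on Ifit1 was smaller, at -1.26 ± 0.38 (adjusted p = 0.0271, 0.937% called lower). Between implanted and MMTV-PyMT ECs, Ifit1bl1 stood at 2.77 ± 0.32 (adjusted p = 8.65e-05, 1.85% called higher), and Ifit1 at -1.84 ± 0.38 (adjusted p = 0.00446, 0.629% called lower). Ifit3 and Ifit3b rose more in MMTV-PyMT than in normal ECs, by 1.61 ± 0.33 (adjusted p = 0.00829) and 1.59 ± 0.41 (adjusted p = 0.0245), with 1.28% of all tested genes called higher. Both had lower PBS levels in MMTV-PyMT ECs, and their cGAMP levels were not called different. Ifit2 was called in none of the 3 differences, at 0.65 (95% interval -0.02 to 1.33), 0.02 (-0.66 to 0.70) and -0.63 (-1.31 to 0.04). By quantiles the Ifit2 effect was called smaller in implanted than in normal ECs (-1.05, adjusted p = 0.042 in limma). It was also called smaller than in MMTV-PyMT ECs (-1.39, adjusted p = 0.0152 in limma). Ifit3 was not called between implanted and MMTV-PyMT ECs, at -0.95 ± 0.33 (adjusted p = 0.077), but was with a pseudocount of 0.1 (-1.52), by voom (-1.62), scaled to total reads (-1.19) and by quantiles (-1.55). These 3 comparisons share samples with one another and with the comparisons above.

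The size of the difference for Ifit1bl1 moved with the scale. With a pseudocount of 0.1 FPKM it was 2.25 (adjusted p = 0.00861 in limma) against normal and 2.02 (adjusted p = 0.0236) against MMTV-PyMT ECs. With voom, on recovered reads, it was 1.98 (adjusted p = 0.158) against normal and 1.71 (adjusted p = 0.296) against MMTV-PyMT ECs. The call of Ifit1 between implanted and normal ECs was lost when any of 5 libraries was left out (normal PBS replicate 1 or 3, normal cGAMP replicate 1 or 2, or implanted PBS replicate 1), at -1.10 to -1.23 with adjusted p from 0.054 to 0.0745. The call of Ifit3b between MMTV-PyMT and normal ECs was lost without normal PBS replicate 2, normal cGAMP replicate 3, MMTV-PyMT PBS replicate 1 or 3 or MMTV-PyMT cGAMP replicate 3, at 1.27 to 1.60 with adjusted p from 0.0528 to 0.0648.

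Under cGAMP the make-up of the family in implanted ECs differed from that in both other tissues. FPKM is per length, so the members can be set side by side within a library. The levels of Ifit3 and Ifit3b remain uncertain because counting can drop reads that fit both. Their shares and ratios carry that limit. In normal ECs the summed level of all 5 members went from 23.1 ± 5.57 FPKM with PBS to 1702.5 ± 279.8 FPKM with cGAMP (SD, n = 3). MMTV-PyMT ECs went from 11.8 ± 6.25 to 1783 ± 129 FPKM, and implanted ECs from 59.3 ± 16.9 to 3517 ± 197 FPKM. Ifit1 was the largest part under cGAMP in normal ECs (44.6% ± 2.90) and in MMTV-PyMT ECs (45.3% ± 4.52), but held 20.01% ± 1.28 in implanted ECs, where Ifit2 held 41.8% ± 2.72 (SD, n = 3). Ifit1bl1 held 0.707% ± 0.168, 0.706% ± 0.290 and 3.39% ± 0.430 under cGAMP in the same order of tissues. Under PBS the share of Ifit1 was 30.2% ± 1.53 (normal), 42.0% ± 3.69 (MMTV-PyMT) and 28.8% ± 1.97 (implanted). Shares thus shifted with cGAMP in normal ECs as well. There the mean share of Ifit3 went from 24.23% to 13.1%. It went from 14.4% to 14.93% in MMTV-PyMT ECs and from 23.26% to 22.25% in implanted ECs.

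Ratios between members showed the same by library. The Ifit2 to Ifit1 ratio was 0.682 to 0.976 in normal cGAMP, 0.565 to 0.875 in MMTV-PyMT cGAMP and 1.86 to 2.37 in implanted cGAMP, with no overlap of the last group with any other. The Ifit3 to Ifit1 ratio was 0.293 to 0.294 in the 3 normal cGAMP libraries, 0.294 to 0.382 in MMTV-PyMT cGAMP and 1.08 to 1.15 in implanted cGAMP. The Ifit1bl1 to Ifit1 ratio was 0.0134 to 0.0189, 0.00855 to 0.0248 and 0.135 to 0.191 in the same groups. Implanted cGAMP was thus the highest group in all 3 ratios to Ifit1. The Ifit3b to Ifit3 ratio lay between 0.456 and 0.593 in all 9 cGAMP libraries and between 0.436 and 1.41 in the 9 PBS libraries.

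Whether cGAMP moved these 4 ratios over all tissues together was asked with an exact permutation test of treatment labels within tissue (8000 arrangements, 2-sided, smallest possible p = 0.00025). The mean log2 difference was -0.33 for Ifit3b to Ifit3 (p = 0.0707, adjusted p = 0.283 over the 4 exact tests). It was 0.03 for Ifit1bl1 to Ifit1 (exact p = 0.958, adjusted p = 0.958), where the tissues went apart, normal ECs at -0.94, MMTV-PyMT ECs at -1.32 and implanted ECs at 2.35. It was 0.19 for Ifit2 to Ifit1 (exact p = 0.352, adjusted p = 0.47), at -0.28, -0.14 and 0.997 in the 3 tissues. It was -0.33 for Ifit3 to Ifit1 (exact p = 0.172, adjusted p = 0.344), at -1.44, -0.003 and 0.46. None of the 4 passed the threshold. With 1 FPKM added to both members, 2 of them did: Ifit3b to Ifit3 became -0.50 (adjusted p = 0.001 in the exact test), and Ifit1bl1 to Ifit1 turned to -2.0045 (adjusted p = 0.0125 in the exact test). Adding 1 FPKM draws a ratio of low levels towards 1. Under PBS Ifit1bl1 stood at 0.104 to 1.10 FPKM, and Ifit3b in MMTV-PyMT PBS at 0.377 to 2.91 FPKM. Neither result can therefore be separated from the added value.

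**Figure D5:**
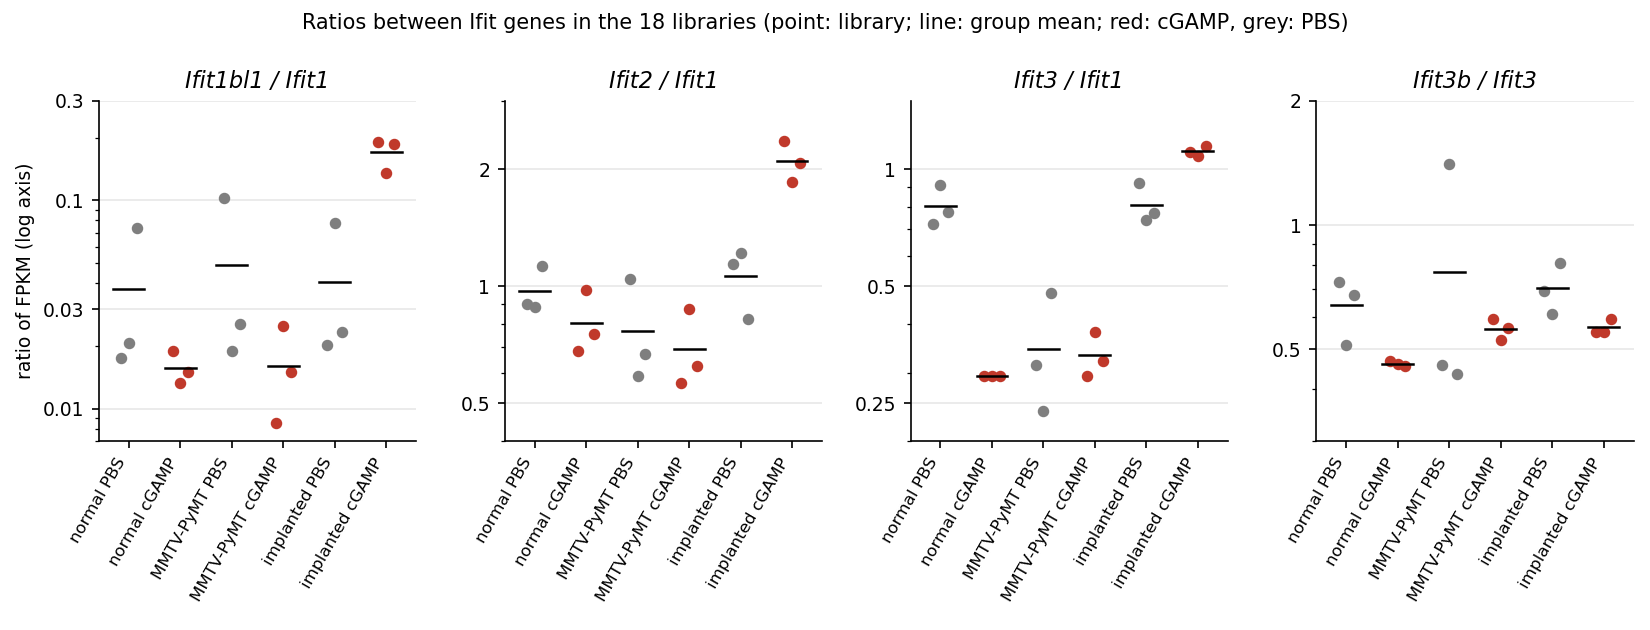
Ratio of the FPKM of pairs of Ifit genes in each of the 18 libraries (log axes), by group, with the group mean as a line. Implanted cGAMP is the highest group in the 3 ratios to Ifit1, and the Ifit3b to Ifit3 ratio stays between 0.456 and 0.593 in all cGAMP libraries.

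Across the 18 libraries, which fall into PBS and cGAMP groups and so share that contrast, the levels of members were correlated at Pearson r of 0.967 to 0.996 in log2(FPKM + 1), except for Ifit1bl1, at 0.875 with Ifit1 and 0.935 to 0.941 with the rest. Outside the family, the genes most like Ifit1 were Oasl1 (r = 0.993), Mx2 (0.992) and Rsad2 (0.99), and those most like Ifit2 were Rsad2 (0.998), Oasl1 (0.994) and Ifih1 (0.993). Most like Ifit3 were Ccl5 (0.992), Isg15 (0.992) and Znfx1 (0.992), and most like Ifit3b were Oas1b (0.994), Isg15 (0.992) and Ccl5 (0.991). Ifit1bl1 was most like other genes, Nt5c3 (0.995), Lipg (0.989) and Setdb2 (0.988). Under cGAMP, Nt5c3, a nucleotidase, stood at 19.4 ± 3.72 FPKM (normal), 18.4 ± 2.57 FPKM (MMTV-PyMT) and 75.1 ± 13.2 FPKM (implanted). Lipg, endothelial lipase, stood at 15.6 ± 3.999, 17.4 ± 2.58 and 75.8 ± 19.2 FPKM in the same groups (SD, n = 3).

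Parts of the interferon pathway rose together with the family, and others did not. The medians over listed genes below stand beside -0.04, -0.04 and -0.01, the medians of all tested genes in normal, MMTV-PyMT and implanted ECs. The counts called higher stand beside 3.02%, 2.49% and 6.13% of all tested genes in the same tissues. Among the genes of the receptor, its kinases and ISGF3, Stat2 was called higher in all 3 tissues (normal 2.04, MMTV-PyMT 2.80, implanted 2.25), and Irf9 in normal and MMTV-PyMT ECs (1.496 and 1.44, with 0.76 in implanted ECs). The receptor chains Ifnar1 and Ifnar2 and the kinases Jak1 and Tyk2 were not called, with changes between -0.84 (Tyk2, normal) and 0.79 (Jak1, implanted). Stat2 and the regulators Irf7 and Irf8 were also higher in implanted than in normal PBS, by 1.198, 2.73 and 2.04.

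Of 6 interferon regulatory factors, 3, 4 and 5 were called higher (medians 1.32, 1.84 and 1.83). Irf1 changed by 1.98, 2.53 and 1.53, Irf7, which amplifies the response, by 2.39, 2.25 and 2.09, and Irf8 by 2.13, 2.36 and 1.94 in the 3 tissues (normal, MMTV-PyMT, implanted). Irf2, which can repress interferon genes, was called in MMTV-PyMT (1.44) and implanted ECs (1.72), with 0.65 in normal ECs. Irf5 was called in implanted ECs alone (3.05), with 0.40 in normal and 0.63 in MMTV-PyMT ECs, and its effect was larger there than in MMTV-PyMT ECs by 2.42 ± 0.28 (SE, adjusted p = 7.92e-05 in limma). Irf3, the factor that STING activates through phosphorylation, was not called, at -0.55, 0.15 and -0.29.

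Of 7 RNA sensors and adaptors, 3, 3 and 5 were called higher (medians 0.61, 0.52 and 1.60). Ifih1 (the sensor MDA5) rose by 3.63, 3.83 and 4.34 and Dhx58 by 2.69, 2.54 and 3.23, while Ikbke, a kinase, had -0.07 and 0.02 in normal and MMTV-PyMT ECs and 0.68 in implanted ECs (adjusted p = 0.00226 in limma), below the fold limit. Of 12 other antiviral effectors that bind or cut RNA, 9, 8 and 11 were called higher (medians 1.57, 1.85 and 2.32), with Oasl1 highest at 7.01, 6.97 and 6.18. Isg20, an exonuclease, had 1.99, 2.25 and 3.999, the last being the widest change after Oasl1 in implanted ECs. Of 10 other interferon-stimulated genes, 9, 9 and 9 were called higher (medians 4.04, 4.83 and 4.13), led by the antiviral enzyme Rsad2 at 6.64, 7.49 and 6.96 and by Cmpk2, a nucleotide kinase, at 4.96, 5.68 and 6.18, with Bst2 smallest at 0.34, 0.68 and 0.76. Of 6 negative regulators of signalling, 3, 2 and 3 were called higher, led by Usp18, which blocks signalling at the receptor, at 4.03, 4.76 and 4.56 and by Socs1 at 2.43, 2.71 and 2.60. Pias1 had the smallest change of the list, at 0.004 in normal ECs, with -0.26 and 0.21 in MMTV-PyMT and implanted ECs.

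The machinery that IFIT proteins meet on RNA moved little. Of 16 genes of eIF3, to which IFIT proteins bind, and of the cap-binding complex, no change reached the fold limit in the 3 cGAMP comparisons, with medians of 0.04, -0.05 and 0.003. The widest were Eif4a1 at 0.58 in normal ECs and Eif3g at -0.30 in implanted ECs. At an adjusted p under 0.05 in limma without the fold limit, 1, 0 and 4 of them differed in normal, MMTV-PyMT and implanted ECs, against 31.9%, 12% and 39.1% of all tested genes. Of 7 tested genes of cap methylation and nuclear cap binding, Cmtr1, the methyltransferase that marks the first transcribed base of host RNA, was called higher in implanted ECs (1.07) and stood at 0.35 in normal and 0.52 in MMTV-PyMT ECs. Ncbp2 was called lower in normal ECs (-1.02, with 0.687% of all tested genes called lower) and stood at -0.10 in MMTV-PyMT and -0.60 in implanted ECs.

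Genes on either side of the cluster did not move as a block with it. Of 8 neighbours on chromosome 19, 2, 2 and 3 were called higher with cGAMP in normal, MMTV-PyMT and implanted ECs (medians 0.15, 0.27 and 0.13). Of all tested genes, 3.02%, 2.49% and 6.13% were called higher. Ch25h, an enzyme that makes an antiviral oxysterol and is itself interferon-induced, rose by 1.37, 3.42 and 2.82. Lipa, the lysosomal lipase next to Ifit2, rose by 1.13 in MMTV-PyMT and 1.25 in implanted ECs and stood at 0.60 in normal ECs. On the far side, Slc16a12, the gene next to Ifit1, was called in normal ECs (1.18) and stood at 0.26 and 0.12 in the tumours. Fas, a death receptor, was called in implanted ECs (1.29) with 0.14 and 0.59 in normal and MMTV-PyMT ECs. Acta2 stood at -0.41, 0.24 and 0.10, Stambpl1 at 0.16, 0.27 and 0.15, Kif20b at -0.22, -0.002 and -0.53 and Pank1 at -0.44, -0.27 and -0.61.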

How the data were processed

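RNA-seq was measured in ECs of 18 libraries, 3 in each of 6 groups. Per the study's methods and the submitters' processing notes, reads were aligned to mm10 with STAR 2.7 and counted with HTSeq after FastQC. The authors deposited 1 table of FPKM values, whose annotation, counting strand and scaling are not given in the sources used here. Of its columns, 12 name tumour type and treatment, and the other 6 name only the treatment and were taken as normal fat pad because every tumour column names its tumour. There were 0 columns without a sample.

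FPKM steps were compared with GENCODE M21 exon lengths, and whole reads came out for 98.54% of the genes with a matched length (97.11% of the table, tolerance 0.05 reads), giving 9015157 to 11969514 reads per library. Intervals from reads would cover counting error only. The 18 pairs of replicates of the same group all differed beyond sampling noise. Which mouse or experiment gave which library was not stated, so p-values measure the spread between these libraries.

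Genes with FPKM of at least 1 in at least 3 libraries were tested (13983, with 2265 left out). limma 3.58.1 in R 4.3.3 (trended eBayes, 2-sided) was fitted to log2(FPKM + 1) of all 18 libraries, with Benjamini-Hochberg adjustment over all tested genes. This scale understates changes of low genes. A call needed an adjusted p under 0.05 and a log2 change of at least 1. Ratios of members were tested by exact permutation within tissue. The alternatives were another pseudocount (0.1), other filters, no fold limit, fits to the compared groups alone, no trend, a replicate block, voom on the recovered reads, other scalings and leaving out each library. The scripts were tested on simulated data. Sequence identity was computed on transcripts, and protein sequences were not used here.

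The members and the gene lists were chosen with earlier results of these data known. Named genes were the 5 members, every gene of the receptor, regulatory factor and neighbour lists, the 2 widest and the 1 smallest change of each other list, and the 3 genes most correlated with each member. Some genes that this rule names are not reported here.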

Additional observations from a re-analysis of the deposited data

Results flagged for a closer look

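The cGAMP effect differed between tissues, by limma's test of the difference itself, for 4 of the 5 genes. Ifit3 and Ifit3b rose more in MMTV-PyMT than in normal ECs, by 1.61 and 1.59 on the log2 scale (adjusted p = 0.00829 and 0.0245). Under cGAMP these tissues differed by 0.27 and 0.54, which were not called, and under PBS by -1.35 and -1.05, which were.

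Ifit1 rose less in implanted ECs than in normal ECs, at -1.26 (adjusted p = 0.0271 in limma), and less than in MMTV-PyMT ECs, at -1.84 (adjusted p = 0.00446). Ifit1bl1 rose more in implanted ECs, at 2.85 against normal (adjusted p = 2.65e-05) and 2.77 against MMTV-PyMT ECs (adjusted p = 8.65e-05). By voom the Ifit1bl1 differences were not called, at 1.98 (adjusted p = 0.158) and 1.71 (adjusted p = 0.296). The PBS levels of Ifit1bl1 rest on 3 to 22 reads a library. The 3 differences share samples.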

How the results depend on the processing

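The 3 cGAMP effects kept all 5 calls under every alternative run, in 420 of 420 single values and 84 of 84 counts. Of all counts and ratio tests, 387 of 416 were held as kept. A small change of a count passed as kept, as from 4 to 3 members in implanted against normal cGAMP scaled to total reads. Of single members 1618 of 1680 kept direction and call, the others being 23 weaker, 12 stronger and 27 reversed. For every change below, unless the alternative's own construction shows it, the cause was not tested.

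By voom, 1 member was called in the implanted minus normal effect difference, in place of 2, and 3 in the implanted minus MMTV-PyMT difference, in place of 2, where Ifit1bl1 was lost and Ifit3 (-1.62) and Ifit3b (-1.74) were gained. Quantile normalisation gave 1 call lower in MMTV-PyMT PBS, 2 in implanted against MMTV-PyMT cGAMP and 4 in the implanted minus MMTV-PyMT difference. With 1 FPKM added to both genes, the Ifit3b to Ifit3 ratio became -0.50 and the Ifit1bl1 to Ifit1 ratio -2.0045, both past the threshold. That step by itself draws ratios of low PBS levels towards 1. The Ifit2 effect difference, implanted minus normal, turned to -0.0868 with a pseudocount of 0.1, -0.0931 by voom, -0.32 scaled to total reads and -1.05 by quantiles, and that of Ifit3 to -0.0521 by quantiles. Scaled to total reads and by quantiles, Ifit1 between MMTV-PyMT and normal cGAMP turned to -0.0609 and -0.32, Ifit1bl1 to -0.13 and -0.12, and the Ifit1bl1 effect difference to -0.06 and -0.18. Under PBS, Ifit1bl1 between MMTV-PyMT and normal ECs turned to 0.0602 by quantiles.

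Leaving out 1 library gave 1 to 2 calls in the implanted minus normal and in the MMTV-PyMT minus normal difference, 1 to 3 in MMTV-PyMT against normal PBS and 2 to 4 in implanted against normal PBS. It moved the Ifit1bl1 to Ifit1 ratio from -0.13 to 0.28, Ifit2 in the implanted minus normal difference from -0.20 to 0.25, and Ifit1bl1 between MMTV-PyMT and normal ECs from -0.14 to 0.034 under PBS, -0.22 to 0.27 under cGAMP and -0.16 to 0.33 in their difference. Between MMTV-PyMT and normal cGAMP, Ifit2 ranged from -0.30 to 0.0596 and Ifit1 from -0.0236 to 0.22.

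The replicate numbers showed no clear pairing of the libraries (r of -0.35 to 0.29 over 45 same-numbered pairs, 8 over 0.1, and 5 of 18 libraries most like their own number). Deviations from means of 3 libraries can miss a pairing, so its absence is not shown. With the number as a block, the members called were 5, 5 and 5 for the cGAMP effects, 2, 4 and 4 under PBS, 0, 4 and 4 under cGAMP and 2, 2 and 2 for the effect differences, the same counts as without it.

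Over all genes, calls in the cGAMP effects of normal, MMTV-PyMT and implanted ECs went from 518, 358 and 1010 to 1039, 600 and 1768 with a pseudocount of 0.1, to 1079, 576 and 1765 by voom and to 4458, 1676 and 5464 with no fold limit. Depth limits Ifit1bl1 under PBS, at 3 to 22 reads a library, and Ifit3 and Ifit3b in MMTV-PyMT PBS, at 10 to 63 reads.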

Other observations

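At 3 hours after cGAMP some members stood among the most abundant transcripts of the ECs. By FPKM among 16248 listed genes, Ifit1 ranked 13 to 20 in the normal cGAMP libraries and 17 to 24 in the MMTV-PyMT cGAMP libraries, but 38 to 42 in the implanted ones, behind Ifit2 at 16 to 18 and beside Ifit3 at 35 to 38. Ifit3b ranked 212 to 280, 142 to 188 and 58 to 70 in normal, MMTV-PyMT and implanted cGAMP. Ifit1bl1 ranked 2340 to 3890, 2406 to 4922 and 294 to 393 in the same groups.

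The lysine methyltransferase gene Setdb2, the third gene most like Ifit1bl1, stood at 12.9 ± 1.77 FPKM (normal), 11.5 ± 2.29 FPKM (MMTV-PyMT) and 33.9 ± 6.19 FPKM (implanted) under cGAMP (SD, n = 3), and at 2.17 to 2.46 FPKM in the means of the PBS groups. Ifit1bl2, which shares stretches of sequence with Ifit1 and Ifit1bl1, rose from 0.252 to 7.90 FPKM in the means of implanted ECs, 31.3-fold, against 190.1-fold for Ifit1bl1.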
